A study of Mus musculus with 16 samples.

Results

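The 39 genes described here are maternal-effect and germline genes of the mouse oocyte, a group of regulators, RNA-binding proteins and cytoplasmic proteins that leaves out the egg coat and the growth factors secreted by the oocyte. They were listed by name, with no threshold on a measured value, but with earlier results of these data known. A gene was read by the probe whose name, or whose accession's current symbol, was that gene, with older names counted, and the brightest probe was used where there were several. Of the 39 listed genes, 37 had a probe by this rule, and 36 of these passed the filter on dim probes and entered the test, among 24366 features tested in all. Obox1 and Kpna7 had no probe by this rule. Gpr3, a receptor that keeps the oocyte in meiotic prophase, was well above background on 1 array alone and was not tested.

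Oocytes of the growing follicle are held in meiotic arrest. They store the RNA and protein that the embryo will use before its own genome is switched on. Germline transcription factors such as Figla and Nobox start the oocyte's program, NLRP proteins and their partners build the subcortical maternal complex, and RNA-binding proteins keep the stored messages silent until meiosis resumes. Most of these genes are known mainly from oocytes and are little used by the somatic cells of the ovary.

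Whole ovaries of mice aged 1 year were measured on 16 single-colour arrays, 4 in each of 4 groups. Ex3aERKO ovaries lacked estrogen receptor alpha (ERα), Ex3bERKO ovaries lacked estrogen receptor beta (ERβ), and Ex3abERKO ovaries lacked both, while control ovaries carried one allele of each receptor and were thus not wild type. The study asked what these receptors do in the change of granulosa cells, the somatic partners of the oocyte, toward another cell type in the aged ovary. Separate animals are not named in the labels, and the p-values therefore measure only how far these samples spread, part of which may be technical. Because whole organs were sampled, fewer oocytes and less RNA per oocyte cannot be told apart in any value below.

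A level is the log2 of a probe's signal over the 75th percentile of its array, listed for replicates 1 to 4 of a group. Differences are log2 differences ± SE from 1 limma model over all arrays, with p-values adjusted over all 24366 features. A gene passed the test at an adjusted p under 0.05. Levels are compared between groups for 1 probe at a time and not between probes.

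The arrays had a 75th percentile of signal of 1211 to 1806 and 80.4% to 87.6% of spots well above background. Within groups they correlated across features at r of 0.953 to 0.986. In an alternative fit with array weights, the weight was 0.19 on Ex3abERKO 3 and 0.43 on Ex3aERKO 4, against 2.45 on control 3. The probe for Esr1, the gene of ERα, lay between -3.65 and -1.89 in Ex3aERKO and between -2.10 and -1.03 in Ex3abERKO, against -0.32 to 0.20 in control. The probe for Esr2, the gene of ERβ, lay between -0.58 and 1.00 in Ex3bERKO and between -2.53 and -1.60 in Ex3abERKO, against -0.33 to 0.35 in control. In the limma model the same Esr2 probe fell in Ex3abERKO (-1.97, adjusted p = 0.0132) and not in Ex3bERKO (0.43, adjusted p = 0.914). The place of these probes relative to the deleted part of either gene was not determined. Why Ex3bERKO and Ex3abERKO differ in Esr2 signal was not tested. The arrays thus do not show the loss of ERβ in Ex3bERKO, which is taken from the group names. Arrays differed in markers of other tissues. The summed linear level of 4 liver genes was 138 on Ex3aERKO 2 and at most 1.09 on every other array and that of 6 oviduct genes was 61.1 on Ex3abERKO 2 and at most 5.06 elsewhere. The sum of 4 erythroid genes ranged over 29.4 to 94.7 (Ex3aERKO), 12.4 to 45.1 (Ex3bERKO) and 33.4 to 99.4 (Ex3abERKO), against 9.68, 10.3, 15.2 and 133 on control 1 to 4. Control 4 thus had the highest sum of all arrays, far from the other control arrays and from all Ex3bERKO arrays. All Ex3aERKO and Ex3abERKO arrays lay above the other 3 control arrays.

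Without ERα the oocyte genes were low as a group. In Ex3aERKO against control, 23 of the 36 genes fell and 0 rose, beside 4.20% of all features that fell and 3.85% that rose. All 36 differences were below 0, with a median of -1.95, where the median over all features was -0.08 and 59.4% of features were below 0. The 36 genes share arrays and are not independent of one another. They include Fmn2, for which another probe gave 2.12, and with all kept probes of a gene averaged 35 were below 0. The genes with the largest falls were Zar1 at -3.22 ± 0.51, Nlrp14 at -3.01 ± 0.61, Btg4 at -3.01 ± 0.69, H1foo at -2.96 ± 0.5 and Obox5 at -2.95 ± 0.6. For Zar1 this is a signal 9.32 times lower than in control. In 22 of the 36 genes every Ex3aERKO array lay below every control array, beside 9.48% of all features, and in 0 genes above, beside 7.43%.

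Without ERβ alone no member passed the test. In Ex3bERKO against control, 0 of 36 genes fell and 0 rose in limma's fit, beside 0.648% and 0.398% of all features. An unadjusted p under 0.05 was found for 2 genes, Ooep and Dnmt3l, beside 9.79% of all features. The differences lay mostly on one side of 0. They were above 0 for 33 of 36 genes, with a median of 0.73. Of all features 51.4% were above 0, and their median was 0.01. The 36 genes were read on the same arrays and are not independent of one another. Below their control means lay 3, 25, 2 and 2 of them on Ex3bERKO 1 to 4. In 2 genes, Figla and Gtsf1, every Ex3bERKO array lay above every control array, beside 3.76% of all features, and in 0 genes below, beside 4.24%.

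Without both receptors most of the group was low, and 1 gene was high. In Ex3abERKO against control, 19 of 36 genes fell and Dnmt3l rose, beside 11.7% of all features that fell and 10.7% that rose. The median difference was -1.47, where that of all features was -0.10, and 30 of the 36 differences were below 0. Groups did not overlap for 22 genes that were lower and 2, Dnmt3l and Cpeb1, that were higher, beside 13.3% and 11.6% of all features. The comparisons with control share the same 4 control arrays. Both Ex3aERKO and Ex3abERKO showed a fall of 18 genes. A further 5 passed as lower in Ex3aERKO and not in Ex3abERKO (Nobox, Lhx8, Oosp1, Khdc1a and Uchl1), 1 passed as lower in Ex3abERKO and not in Ex3aERKO (Pou5f1), and 12 in neither. Of these 6, the difference between Ex3abERKO and Ex3aERKO itself passed for Uchl1 (adjusted p = 0.00474) and not for Nobox (adjusted p = 0.194), Lhx8 (0.264), Oosp1 (0.24), Khdc1a (0.208) or Pou5f1 (0.378).

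**Figure D1:**
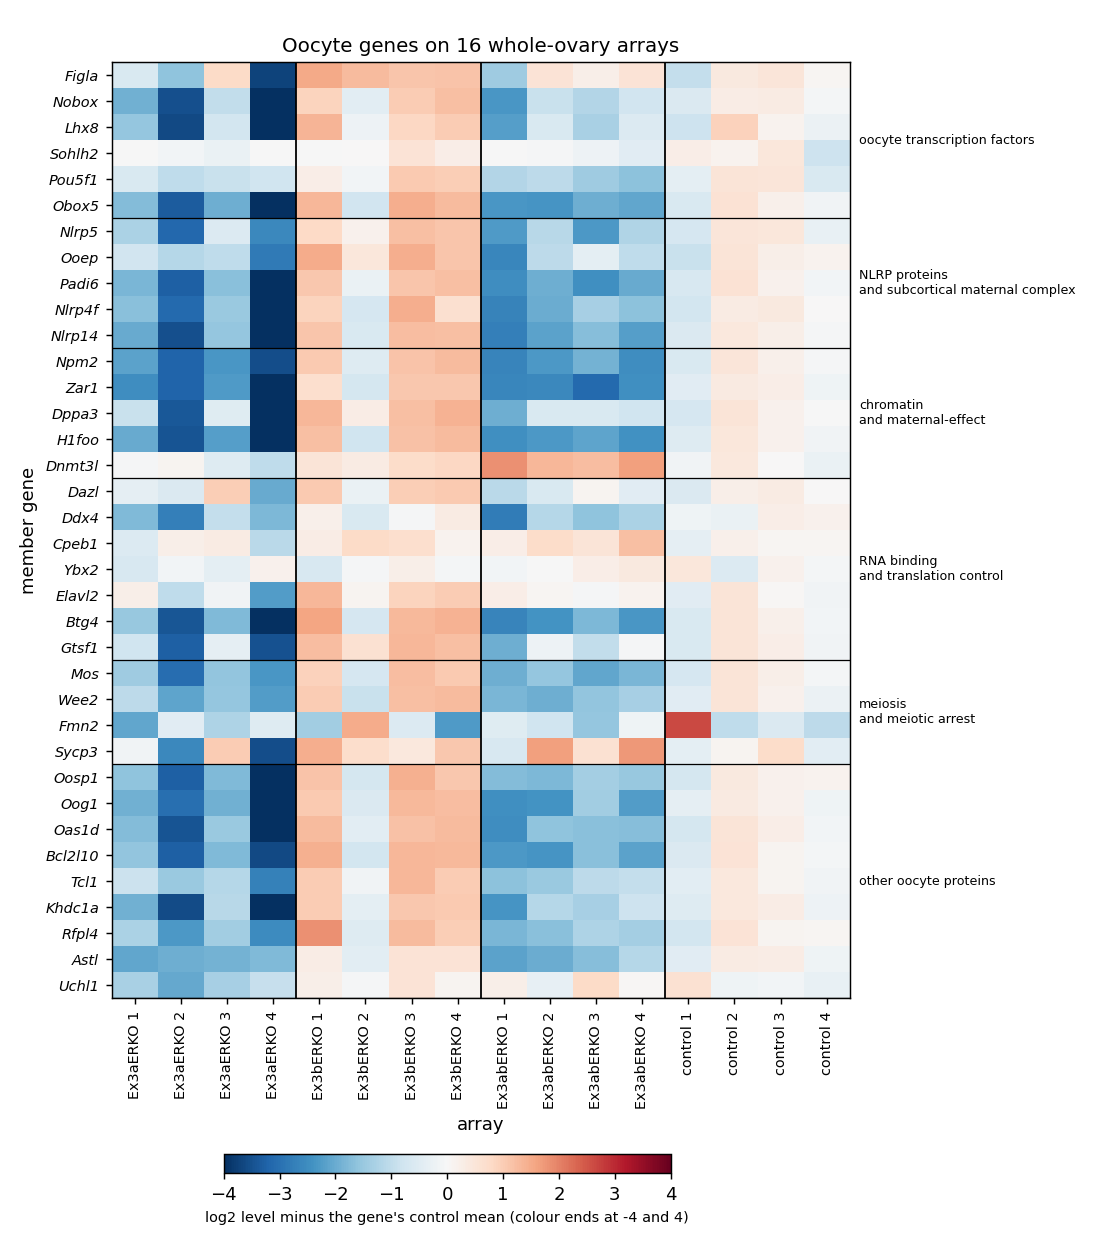
Level of each of the 36 tested genes (rows, ordered by role) on each of the 16 arrays (columns), as the log2 level minus that gene's mean over the 4 control arrays; blue is below and red above the control mean. Most rows are blue in Ex3aERKO and Ex3abERKO and pale red in Ex3bERKO 1, 3 and 4, while Dnmt3l is red in all 4 Ex3abERKO arrays.

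The fall held on each slide. Arrays with the same scan date in the file headers were taken as 1 slide, and no slide number was read. Slides 1 to 4 each carried Ex3aERKO and control arrays. The median difference of the 36 genes between them was -2.57, -1.07, -1.78 and -3.73, with 34, 31, 36 and 34 genes below 0. Ex3abERKO and control arrays shared slides 1, 2 and 4, where the median was -0.74, -1.61 and -1.46, with 27, 29 and 28 genes below 0. The genes that passed all kept their sign on each slide in both comparisons. For most of them this adds nothing, because groups that do not overlap fix that sign in advance. Ex3bERKO and control arrays shared slides 1, 3 and 4, with medians of 0.10, 0.63 and 0.88. Without the 3 arrays with the top liver, oviduct and erythroid sums (Ex3aERKO 2, Ex3abERKO 2 and control 4), the medians were -1.75 in Ex3aERKO, 0.70 in Ex3bERKO and -1.53 in Ex3abERKO, but with fewer arrays 5 genes still passed as lower in Ex3aERKO (Npm2, Zar1, H1foo, Astl and Uchl1) and 9 in Ex3abERKO. Leaving out control 2 alone gave 11 lower genes in Ex3abERKO, and leaving out control 3 alone gave 12.

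Arrays of a group did not carry the same amount of oocyte signal. The median over the 36 genes of the level minus the control mean was -1.48, -3.04, -1.19 and -3.52 on Ex3aERKO 1 to 4, and -2.04, -1.14, -1.34 and -1.16 on Ex3abERKO 1 to 4. On Ex3bERKO 1 to 4 it was 1.04, -0.34, 1.13 and 1.08, and on control 1 to 4 it was -0.58, 0.43, 0.20 and -0.12. Each Ex3aERKO and each Ex3abERKO array thus lay below all control arrays in this median, whereas Ex3bERKO 2 lay among the control arrays and the other Ex3bERKO arrays lay above them. Ex3bERKO 2 was the lowest of its group for 30 of the 36 genes, where it was lowest for 33.5% of all features. Ex3aERKO 4 was the lowest of its group for 27 genes (27% of all features), Ex3abERKO 1 for 23 (27.9%) and control 1 for 28 (26%). Leaving out Ex3bERKO 2 raised the median difference of Ex3bERKO from control to 1.08, and still 0 genes passed.

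**Figure D2:**
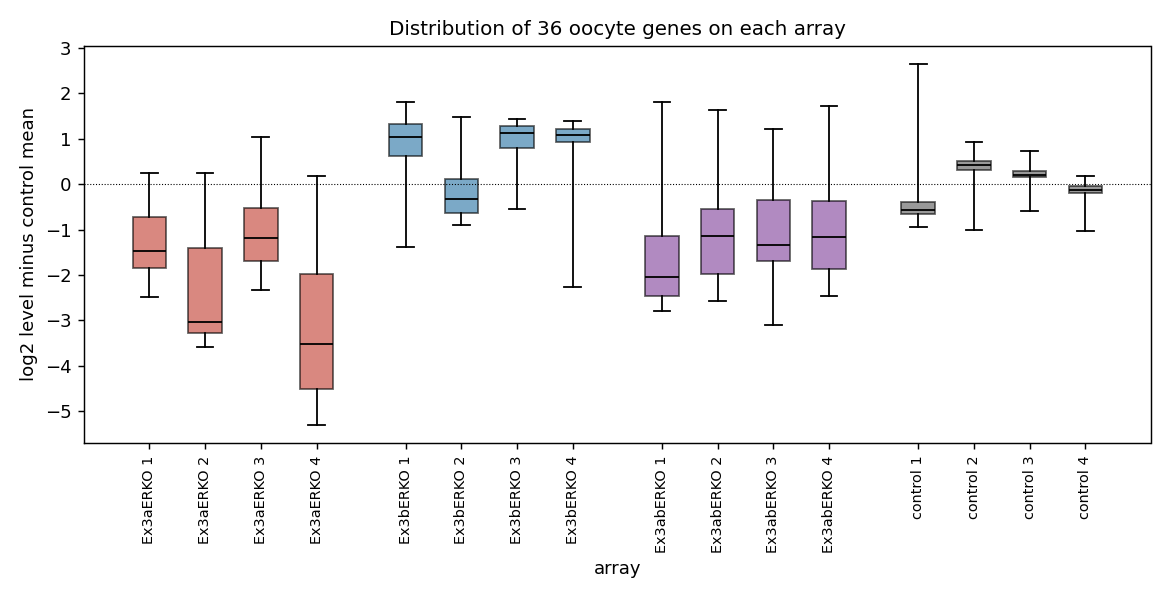
Log2 level minus the control mean for the 36 oocyte genes on each array; boxes span the quartiles, the line is the median and whiskers reach the lowest and highest gene. All 4 Ex3aERKO medians (-3.52 to -1.19) and all 4 Ex3abERKO medians (-2.04 to -1.14) lie below the control medians (-0.58 to 0.43), and 3 of the 4 Ex3bERKO medians lie above 1.

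Of the oocyte transcription factors, 6 of 7 were tested, 3 fell in Ex3aERKO, 2 in Ex3abERKO and 0 in Ex3bERKO. Obox5, of an oocyte-specific homeobox family, had levels of -2.99, -4.58, -3.19 and -6.01 in Ex3aERKO, 0.07, -2.02, 0.19 and 0.02 in Ex3bERKO, -3.58, -3.62, -3.19 and -3.33 in Ex3abERKO, against -1.87, -0.68, -1.06 and -1.39 in control. All Ex3aERKO and Ex3abERKO arrays lay below all control arrays, and the difference was -2.95 ± 0.6 in Ex3aERKO (adjusted p = 0.00773) and -2.18 ± 0.6 in Ex3abERKO (adjusted p = 0.0175). The accessions of the Obox5 probe also name Obox2 and Obox3, so its signal may come from more than 1 family member. Nobox, a homeobox factor needed for early follicle growth, had levels of -2.47, -4.06, -1.52 and -4.77 in Ex3aERKO, 0.36, -0.96, 0.49 and 0.66 in Ex3bERKO, -2.87, -1.42, -1.72 and -1.3 in Ex3abERKO, against -1.11, -0.24, -0.2 and -0.63 in control. Both knockouts of ERα lay below control without overlap, but only the Ex3aERKO difference passed (-2.66 ± 0.6, adjusted p = 0.0138, against -1.28 ± 0.6, adjusted p = 0.149, in Ex3abERKO). Lhx8, a LIM homeobox factor of early oocytes, had levels of -3.17, -5.21, -2.36 and -5.62 in Ex3aERKO, -0.24, -1.81, -0.79 and -0.59 in Ex3bERKO, -3.81, -2.22, -2.92 and -2.16 in Ex3abERKO, against -2.44, -0.69, -1.47 and -1.83 in control. Ex3aERKO 2 and 4 were far below control while Ex3aERKO 3 lay within the control range, and the difference of -2.48 ± 0.66 passed in Ex3aERKO (adjusted p = 0.0305) but that of -1.17 ± 0.66 in Ex3abERKO did not (adjusted p = 0.23).

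Pou5f1, known as Oct4 and kept in the germ line and the early embryo, had levels of -4.9, -5.3, -5.17 and -5.09 in Ex3aERKO, -4.0, -4.4, -3.22 and -3.31 in Ex3bERKO, -5.44, -5.34, -5.71 and -5.93 in Ex3abERKO, against -4.67, -3.76, -3.8 and -4.9 in control. It was the 1 gene that passed as lower in Ex3abERKO and not in Ex3aERKO (-1.32 ± 0.3, adjusted p = 0.00567), with -0.83 ± 0.3 (adjusted p = 0.107) in Ex3aERKO. The Ex3abERKO fall passed under 28 of the 29 alternative settings. Its probe was the dimmest of the tested genes, though well above background on all 16 arrays. Ex3abERKO lay below control without overlap, and Ex3aERKO 1 and control 4 were alike at 2 decimals. The difference between these groups was -0.49 ± 0.3 (Ex3abERKO minus Ex3aERKO, adjusted p = 0.378) and did not pass. Figla, the basic helix-loop-helix factor that starts primordial follicles and the egg coat genes, had levels of -3.69, -4.71, -2.32 and -6.8 in Ex3aERKO, -1.56, -1.83, -1.99 and -1.94 in Ex3bERKO, -4.52, -2.55, -2.86 and -2.55 in Ex3abERKO, against -4.03, -2.69, -2.61 and -3.02 in control. Its Ex3aERKO arrays were spread over more than 4 log2 units, and Ex3abERKO 1 lay below the control range while Ex3abERKO 2, 3 and 4 lay near its upper end. Neither difference passed (-1.3 ± 0.72, adjusted p = 0.344, in Ex3aERKO and -0.03 ± 0.72, adjusted p = 0.982, in Ex3abERKO). Sohlh2, a germline helix-loop-helix factor, was flat, with levels of -1.97, -2.05, -2.21 and -1.96 in Ex3aERKO, -1.96, -1.93, -1.41 and -1.67 in Ex3bERKO, -1.98, -2.01, -2.15 and -2.39 in Ex3abERKO, against -1.7, -1.82, -1.51 and -2.77 in control. All of its differences from control were within 0.21 of 0 and none passed.

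All 5 genes of the NLRP proteins and the subcortical maternal complex were tested, and 4 fell in Ex3aERKO, the same number in Ex3abERKO, and 0 in Ex3bERKO. Padi6, a peptidylarginine deiminase of the oocyte's cytoplasmic lattices, had levels of 0.22, -1.22, 0.39 and -2.56 in Ex3aERKO, 3.14, 1.78, 3.16 and 3.24 in Ex3bERKO, -0.44, 0.09, -0.39 and 0.03 in Ex3abERKO, against 1.4, 2.62, 2.22 and 1.95 in control. It fell in Ex3aERKO (-2.84 ± 0.54, adjusted p = 0.00512) and in Ex3abERKO (-2.23 ± 0.54, adjusted p = 0.00892), with no overlap with control in either. Nlrp14, an oocyte NLRP protein, had levels of -0.57, -2.05, -0.1 and -3.49 in Ex3aERKO, 2.57, 0.85, 2.68 and 2.66 in Ex3bERKO, -1.26, -0.68, -0.23 and -0.73 in Ex3abERKO, against 0.87, 1.89, 1.69 and 1.41 in control. Again both knockouts of ERα lay wholly below control, with -3.01 ± 0.61 (adjusted p = 0.00767) and -2.19 ± 0.61 (adjusted p = 0.0193). Nlrp5, also called MATER and a core subunit of the complex, fell, with log2 differences of -1.88 in Ex3aERKO and -1.73 in Ex3abERKO, and so did Nlrp4f, with -2.71 and -1.9. Ooep, another core subunit, was the 1 gene of the role that did not pass against control, with levels of 0.1, -0.28, -0.17 and -1.96 in Ex3aERKO, 2.33, 1.3, 2.3 and 1.96 in Ex3bERKO, -1.74, -0.2, 0.46 and -0.17 in Ex3abERKO, against -0.03, 1.36, 1.09 and 1.01 in control. Its Ex3aERKO and Ex3abERKO arrays overlapped control, and the differences were -1.43 ± 0.5 (adjusted p = 0.102) and -1.27 ± 0.5 (adjusted p = 0.086).

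Among the chromatin and maternal-effect genes, 3 of 5 fell in Ex3aERKO and 3 in Ex3abERKO, where the fifth rose. H1foo, the linker histone of oocytes, had levels of 1.55, 0.11, 1.35 and -0.64 in Ex3aERKO, 4.75, 2.76, 4.72 and 4.84 in Ex3bERKO, 1.12, 1.27, 1.46 and 1.14 in Ex3abERKO, against 3.04, 4.02, 3.73 and 3.43 in control. It fell, with log2 differences of -2.96 ± 0.5 (adjusted p = 0.00244) in Ex3aERKO and -2.31 ± 0.5 (adjusted p = 0.00443) in Ex3abERKO, and the highest array of these groups was still more than 1 log2 unit below the lowest control array. Zar1, which binds maternal messages at the passage from oocyte to embryo, fell, with log2 differences of -3.22 ± 0.51 and -2.69 ± 0.51, and Npm2, a histone chaperone for the sperm chromatin, fell with -2.81 ± 0.4 and -2.33 ± 0.4. These 3 genes passed in both comparisons under each of the 29 alternative settings. Dppa3, also called Stella, which guards DNA methylation of the maternal genome, had levels of 0.73, -1.75, 1.15 and -2.88 in Ex3aERKO, 2.97, 1.94, 2.82 and 3.02 in Ex3bERKO, -0.33, 1.02, 1.02 and 0.83 in Ex3abERKO, against 0.97, 2.14, 1.8 and 1.6 in control. Ex3aERKO 2 and 4 were more than 3 units below the control mean while Ex3aERKO 3 lay within the control range, and the difference of -2.31 ± 0.7 did not pass (adjusted p = 0.0587).

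Dnmt3l, a catalytically inactive partner of the enzymes that set methylation imprints in growing oocytes, took another course. Its levels were -1.85, -1.69, -2.32 and -2.82 in Ex3aERKO, -1.28, -1.45, -1.06 and -0.97 in Ex3bERKO, 0.03, -0.47, -0.57 and -0.14 in Ex3abERKO, against -1.93, -1.36, -1.79 and -2.07 in control. Every Ex3abERKO array lay above every array of the other 3 groups. It rose by 1.5 ± 0.24 against control (adjusted p = 0.000693), by 1.88 ± 0.24 against Ex3aERKO (adjusted p = 0.000787) and by 0.9 ± 0.24 against Ex3bERKO (adjusted p = 0.0205). Against control and against Ex3aERKO the gene passed under each of the 29 alternative settings, with differences of 1.12 to 1.65 and 1.67 to 2.10. Against Ex3bERKO it passed under 25 of the 29.

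**Figure D3:**
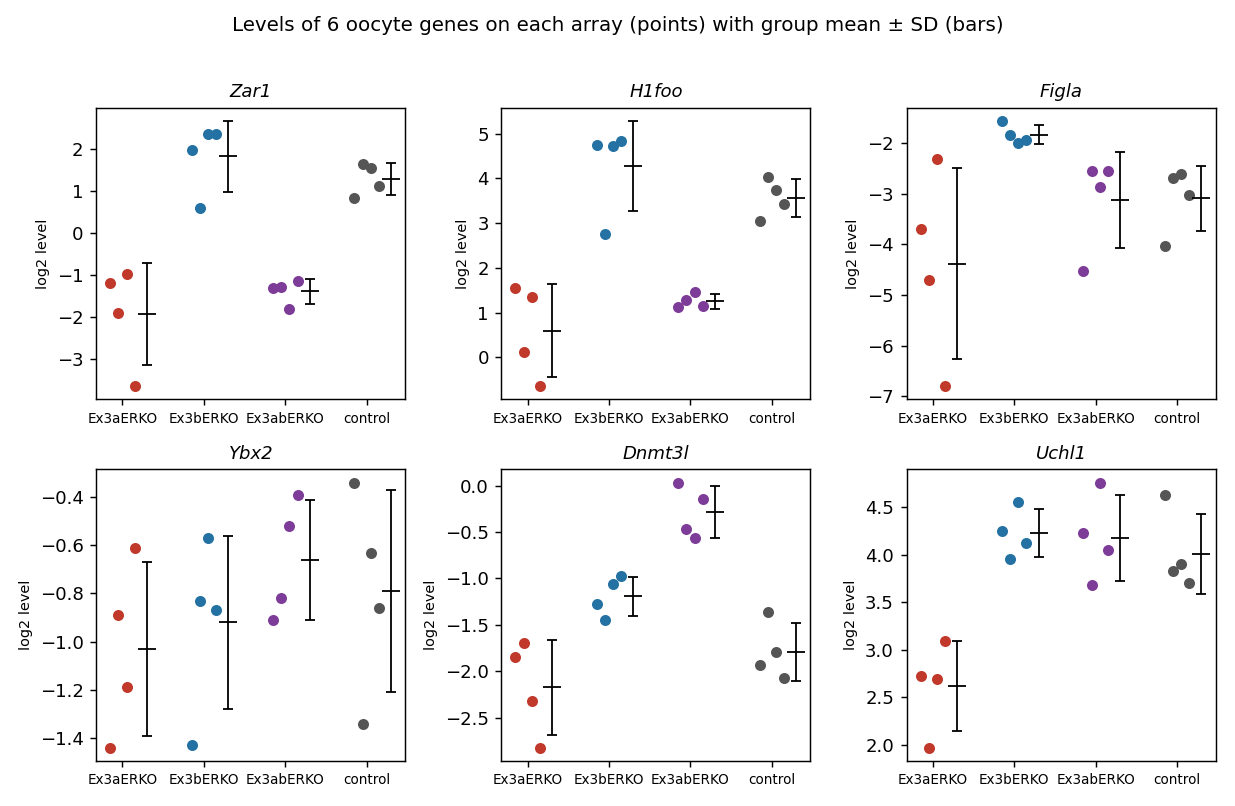
Log2 levels of 6 oocyte genes on each array, with the group mean and SD beside the points (n = 4 per group). Zar1 and H1foo are lower in Ex3aERKO and Ex3abERKO than in control without overlap, Figla and Ybx2 overlap control in both, Dnmt3l is highest in Ex3abERKO and Uchl1 is low in Ex3aERKO alone.

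The genes for RNA binding and translation control were the role with the smallest shift, a median of -0.79 in Ex3aERKO and -0.52 in Ex3abERKO. Of 7 genes, 2 fell in Ex3aERKO and 2 in Ex3abERKO, and these were Ddx4 and Btg4 in both. Ddx4, the germline RNA helicase known as Vasa, fell in Ex3aERKO (-1.81 ± 0.38, adjusted p = 0.00999) and in Ex3abERKO (-1.7 ± 0.38, adjusted p = 0.00593). Btg4, an adaptor for the clearance of maternal messages, fell, with log2 differences of -3.01 ± 0.69 and -2.29 ± 0.69. Gtsf1, a cofactor of the piRNA pathway, had levels of -0.35, -2.82, 0.09 and -3.06 in Ex3aERKO, 1.67, 1.04, 1.78 and 1.64 in Ex3bERKO, -1.51, 0.23, -0.56 and 0.39 in Ex3abERKO, against -0.17, 0.95, 0.69 and 0.29 in control. Ex3aERKO 2 and 4 stood far below the rest, all Ex3bERKO arrays lay above control, and no difference from control passed (-1.97 ± 0.63, adjusted p = 0.0731, in Ex3aERKO). Ybx2, which packages stored messages and is also known as MSY2, had levels of -1.44, -0.89, -1.19 and -0.61 in Ex3aERKO, -1.43, -0.83, -0.57 and -0.87 in Ex3bERKO, -0.91, -0.82, -0.52 and -0.39 in Ex3abERKO, against -0.34, -1.34, -0.63 and -0.86 in control. The 4 groups overlapped throughout, and its differences from control were -0.24 ± 0.25 in Ex3aERKO, -0.13 ± 0.25 in Ex3bERKO and 0.13 ± 0.25 in Ex3abERKO.

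Dazl, which promotes translation in germ cells, had levels of -2.45, -2.69, -1.11 and -4.13 in Ex3aERKO, -1.05, -2.37, -1.11 and -1.05 in Ex3bERKO, -3.19, -2.72, -2.0 and -2.55 in Ex3abERKO, against -2.68, -1.87, -1.76 and -2.09 in control, and its difference from control was -0.5 ± 0.5 in Ex3aERKO and -0.52 ± 0.5 in Ex3abERKO. Groups overlapped in both, and neither passed. Cpeb1, which binds the polyadenylation element of stored messages, had levels of -1.62, -0.82, -0.72 and -2.13 in Ex3aERKO, -0.75, -0.3, -0.38 and -0.91 in Ex3bERKO, -0.81, -0.33, -0.54 and 0.15 in Ex3abERKO, against -1.43, -0.86, -0.97 and -0.99 in control. All Ex3abERKO arrays lay above all control arrays, but the difference of 0.68 ± 0.3 did not pass (adjusted p = 0.123). Elavl2, an RNA-binding protein of neurons and oocytes, had levels of -0.63, -1.89, -1.01 and -3.12 in Ex3aERKO, 0.45, -0.77, 0.02 and 0.16 in Ex3bERKO, -0.6, -0.8, -0.92 and -0.73 in Ex3abERKO, against -1.31, -0.34, -0.83 and -1.01 in control. Only Ex3aERKO 2 and 4 were below the control range, and its difference was -0.79 ± 0.43 in Ex3aERKO and 0.11 ± 0.43 in Ex3abERKO. Another, dimmer probe for Elavl2 gave -0.07 in Ex3aERKO and -0.47 in Ex3abERKO, and one for Dazl gave -1.47 and -0.35.

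Of the meiosis genes, 4 of 5 were tested, and 2 of them fell in Ex3aERKO and in Ex3abERKO. Mos, the kinase that holds the mature egg in metaphase arrest, had levels of -3.58, -5.2, -3.73 and -4.49 in Ex3aERKO, -1.23, -2.84, -0.93 and -1.1 in Ex3bERKO, -4.12, -3.72, -4.25 and -3.99 in Ex3abERKO, against -2.82, -1.66, -1.93 and -2.25 in control. Both knockouts of ERα lay wholly below control (-2.09 ± 0.42, adjusted p = 0.00767, and -1.86 ± 0.42, adjusted p = 0.00624). Wee2, an oocyte kinase that restrains the cell cycle engine during prophase arrest, fell, with log2 differences of -1.74 ± 0.42 and -1.67 ± 0.42. Fmn2, a formin that moves the meiotic spindle, had levels of -3.87, -2.26, -3.03 and -2.32 in Ex3aERKO, -3.18, -0.32, -2.34 and -4.06 in Ex3bERKO, -2.29, -2.61, -3.35 and -1.98 in Ex3abERKO, against 0.85, -2.82, -2.39 and -2.84 in control. Control 1 was far above every other control array, no difference passed, and another, dimmer probe pointed the other way in Ex3aERKO (2.12 against -1.07). No direction is therefore given for Fmn2. Sycp3, of the synaptonemal complex of paired chromosomes, had levels of -4.01, -6.43, -2.83 and -7.4 in Ex3aERKO, -2.41, -3.15, -3.44 and -2.77 in Ex3bERKO, -4.5, -2.23, -3.25 and -2.14 in Ex3abERKO, against -4.25, -3.76, -3.13 and -4.28 in control. It was spread over more than 4 log2 units within Ex3aERKO, where 3 of the 4 arrays were well above background, and its differences were -1.31 ± 0.8 in Ex3aERKO and 0.82 ± 0.8 in Ex3abERKO, neither of which passed.

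Of the other oocyte proteins, 9 of 10 were tested, all 9 fell in Ex3aERKO, 6 fell in Ex3abERKO and 0 in Ex3bERKO. Oas1d, an oocyte member of the oligoadenylate synthetase family, had levels of 0.51, -1.2, 0.74 and -2.72 in Ex3aERKO, 3.5, 1.83, 3.42 and 3.51 in Ex3bERKO, -0.24, 0.64, 0.57 and 0.55 in Ex3abERKO, against 1.54, 2.77, 2.51 and 2.13 in control. It fell in Ex3aERKO (-2.9 ± 0.63, adjusted p = 0.0112) and in Ex3abERKO (-1.86 ± 0.63, adjusted p = 0.0473), with no overlap with control in either. The Ex3abERKO fall passed under 10 of the 29 alternative settings, and the accessions of this probe also name Oas1h. Astl, the protease ovastacin that hardens the egg coat after fertilisation, had the lowest adjusted p of the 36 genes in both comparisons (-1.92 ± 0.26, adjusted p = 0.00058, in Ex3aERKO and -1.73 ± 0.26, adjusted p = 0.000427, in Ex3abERKO). Oog1, Bcl2l10, Tcl1 and Rfpl4 fell, with log2 differences of -2.88, -2.56, -1.55 and -1.86 in Ex3aERKO and of -2.12, -2.12, -1.27 and -1.53 in Ex3abERKO. Bcl2l10 is a BCL2 relative of oocytes, Tcl1 an activator of the AKT kinase in oocytes and lymphoid cells, and Rfpl4 an oocyte RING finger protein, and the accessions of the Oog1 probe also name Pramel25.

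The remaining genes of this role fell in Ex3aERKO without passing in Ex3abERKO. Oosp1, a secreted oocyte protein, had levels of -0.45, -2.11, -0.61 and -3.34 in Ex3aERKO, 2.29, 0.47, 2.57 and 2.24 in Ex3bERKO, -0.56, -0.64, -0.2 and -0.35 in Ex3abERKO, against 0.47, 1.55, 1.34 and 1.29 in control. Neither group overlapped control, and the differences were -2.79 ± 0.57 (adjusted p = 0.00792) in Ex3aERKO and -1.6 ± 0.57 (adjusted p = 0.0581) in Ex3abERKO. Khdc1a, a KH-domain protein of oocytes, had levels of -2.97, -4.64, -2.16 and -6.04 in Ex3aERKO, -0.03, -1.46, 0.01 and -0.01 in Ex3bERKO, -3.43, -2.19, -2.39 and -1.9 in Ex3abERKO, against -1.58, -0.63, -0.77 and -1.26 in control. It fell in Ex3aERKO (-2.89 ± 0.66, adjusted p = 0.0148), with -1.42 ± 0.66 (adjusted p = 0.147) in Ex3abERKO, both without overlap. Uchl1, a ubiquitin hydrolase abundant in oocytes and neurons, had levels of 2.72, 1.97, 2.69 and 3.09 in Ex3aERKO, 4.25, 3.96, 4.56 and 4.13 in Ex3bERKO, 4.23, 3.68, 4.76 and 4.05 in Ex3abERKO, against 4.63, 3.83, 3.9 and 3.7 in control. Every Ex3aERKO array lay below every array of the other 3 groups, which overlapped one another. It fell in Ex3aERKO (-1.4 ± 0.28, adjusted p = 0.00703), with 0.17 ± 0.28 in Ex3abERKO (adjusted p = 0.746).

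**Figure D4:**
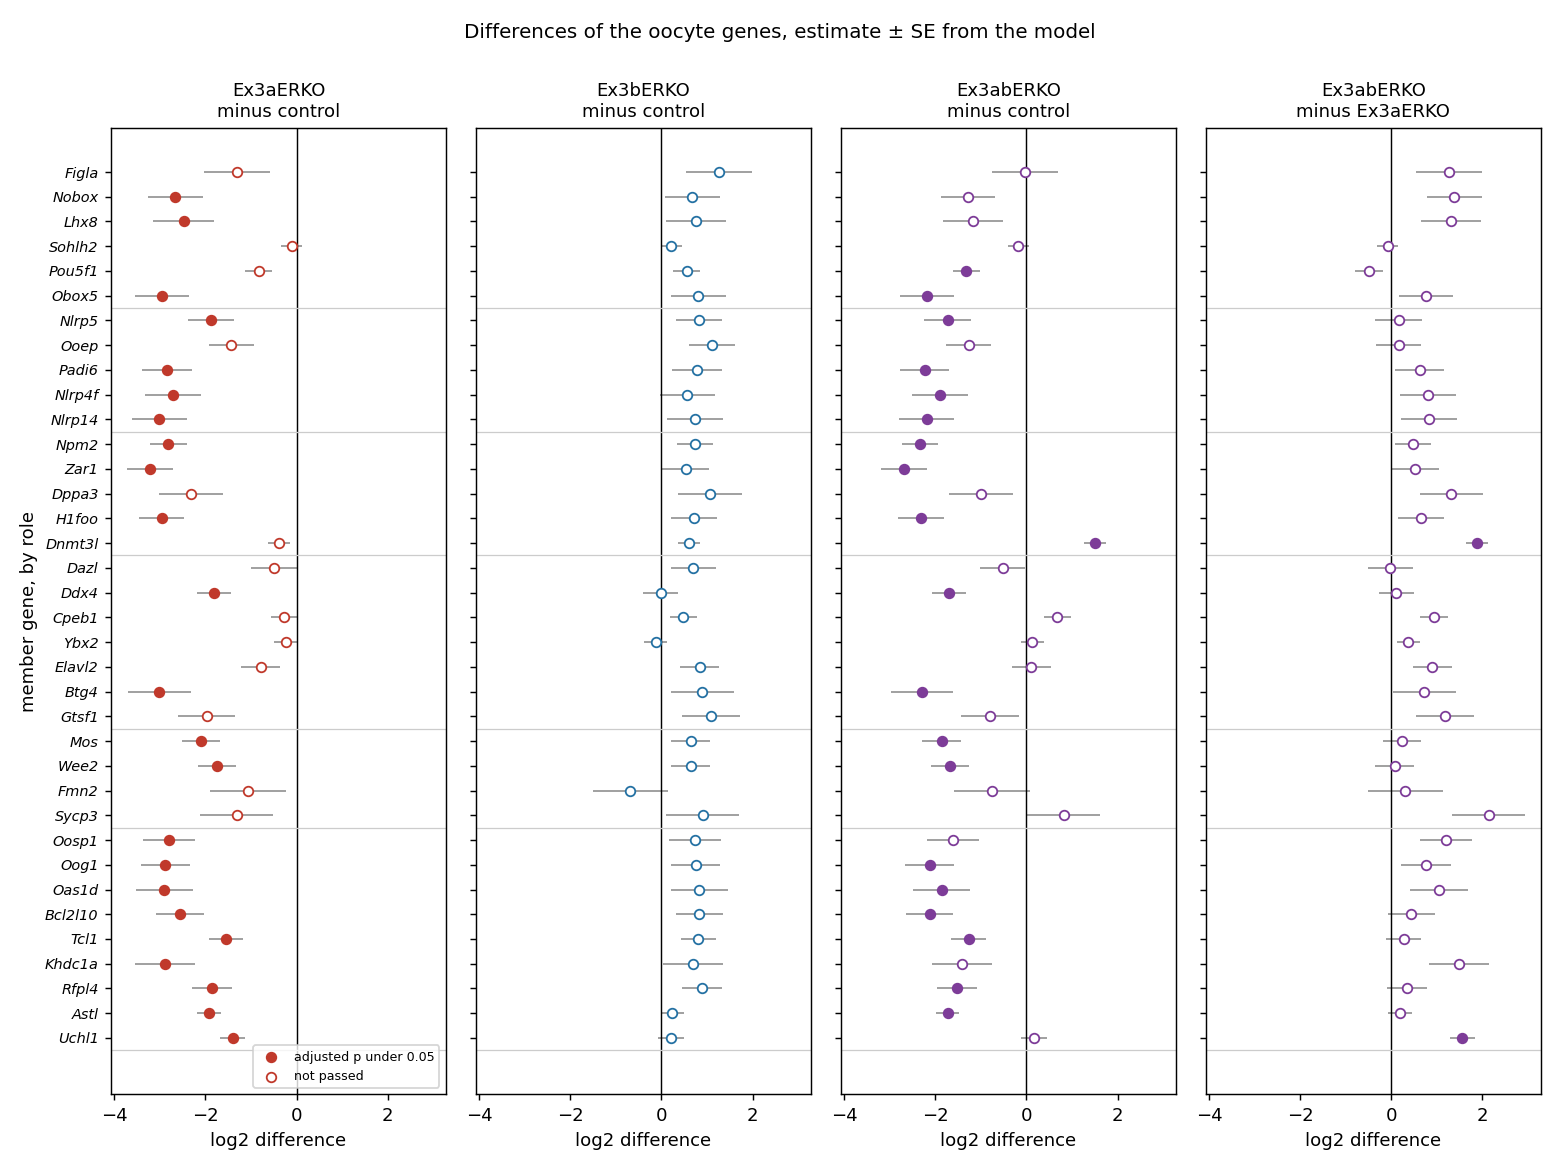
Log2 difference ± SE of each of the 36 genes (rows, by role) in 4 comparisons; filled points passed at an adjusted p under 0.05. In the panels against control 23 points are filled for Ex3aERKO, 0 for Ex3bERKO and 20 for Ex3abERKO, and in the panel of Ex3abERKO minus Ex3aERKO the filled points are Dnmt3l and Uchl1.

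Where ERβ was lost in addition to ERα, the share of listed genes that passed was near that of all features. In Ex3abERKO against Ex3aERKO, 0 of 36 genes fell, beside 3.34% of all features, and Dnmt3l and Uchl1 rose, beside 4.43%. Uchl1 rose by 1.56 ± 0.28 (adjusted p = 0.00474) and passed under each of the 29 alternative settings. Differences were above 0 for 33 of 36 genes, with a median of 0.69. Of all features 49.1% were above 0, with a median of -0.01. The 36 genes were read on the same arrays and are not independent of one another. In all, 6 genes had an unadjusted p under 0.05, beside 22% of all features. The largest of the 36 differences, that of Sycp3 at 2.14 ± 0.8, did not pass (adjusted p = 0.126). Groups did not overlap for Dnmt3l and Uchl1, beside 7.86% of all features, nor for Pou5f1, which was lower in Ex3abERKO, beside 6.10%. The median rested in part on single arrays: it was 0.21, with 9 genes below 0, without Ex3aERKO 4, 1.04 without Ex3aERKO 3, and 0.23 with array weights. Without Ex3aERKO 3, 5 genes rose, and without the 3 arrays with the top liver, oviduct and erythroid sums 2 did.

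The knockouts were also compared with one another against Ex3bERKO. In Ex3abERKO against Ex3bERKO, 23 genes fell and Dnmt3l rose, beside 8.43% and 8.27% of all features, with a median of -2.10, and without the 3 arrays with the top liver, oviduct and erythroid sums 19 fell and Dnmt3l rose. In Ex3aERKO against Ex3bERKO, 28 genes fell and 0 rose, beside 1.70% and 0.657% of all features, with a median of -2.74. Groups did not overlap for 28 genes that were lower and Dnmt3l, which was higher, in Ex3abERKO against Ex3bERKO (10.3% and 9.18% of all features), and for 29 lower and 0 higher genes in Ex3aERKO against Ex3bERKO (5.28% and 3.15%). All 36 differences between Ex3aERKO and Ex3bERKO were below 0, the largest being that of Btg4 at -3.9 ± 0.69 (adjusted p = 0.00641). With all kept probes of a gene averaged, 35 were below 0. The 28 include 5 genes that did not pass in Ex3aERKO against control, which were Dppa3, Ooep, Gtsf1, Pou5f1 and Dnmt3l. Gtsf1 fell with -3.07 ± 0.63 (adjusted p = 0.0179), Pou5f1 with -1.38 ± 0.3 (adjusted p = 0.0231) and Dnmt3l with -0.98 ± 0.24 (adjusted p = 0.0497), while Dppa3 and Ooep fell with -3.37 ± 0.7 (adjusted p = 0.019) and -2.55 ± 0.5 (adjusted p = 0.0139). This fall of Dnmt3l passed under only 10 of the 29 alternative settings. When only the arrays of Ex3aERKO and Ex3bERKO entered the model, 3 genes passed as lower instead of 28, and without the 3 arrays with the top liver, oviduct and erythroid sums 14 did.

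The interaction asks whether the effect of losing ERβ differs with and without ERα, as (Ex3abERKO minus Ex3aERKO) minus (Ex3bERKO minus control). In limma's fit 0 of 36 genes passed in either direction, beside 1.78% of all features below 0 and 1.84% above 0. An unadjusted p under 0.05 was found for 3 genes, Pou5f1, Dnmt3l and Uchl1, beside 16.3% of all features. The median was 0.01, and it had no stable sign: it was -0.47 without Ex3aERKO 4, with 26 of 36 genes below 0, 0.32 without Ex3aERKO 1, 0.33 without Ex3aERKO 3, -0.31 without Ex3bERKO 2 and -0.41 with array weights. Dnmt3l had an interaction of 1.29 ± 0.34 (adjusted p = 0.0544, 0.0248 to 0.105 over 28 alternative settings) and Uchl1 one of 1.35 ± 0.4 (adjusted p = 0.0799). Uchl1 was thus low in Ex3aERKO and near control in Ex3abERKO, but its interaction did not pass under any of the 28 settings.

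Other oocyte genes were read beside these. Of the egg coat and growth factor genes Zp2, Zp3, Gdf9 and Bmp15, all 4 fell in Ex3aERKO (median -3.00), 0 passed in Ex3bERKO (median 0.69) and all 4 fell in Ex3abERKO (median -2.26). The summed linear level in Ex3aERKO was 0.825 to 3.85. In Ex3bERKO it was 10.9 to 40.6 and in Ex3abERKO it was 2.97 to 5.09, against 10.8 to 24.2 in control. In another list of 52 oocyte and germline genes, 44 were tested. In Ex3aERKO 19 fell and 25 did not pass (median -0.88), in Ex3bERKO 0 passed, and in Ex3abERKO 15 fell, 1 rose and 28 did not pass (median -0.59). The gene that rose was Stra8, a meiosis gene induced by retinoic acid, at 1.16 ± 0.37 (adjusted p = 0.0379), and it is named after its value was seen. Nlrp4b, with -3.40 ± 0.66 in Ex3aERKO, had the largest fall of this list there, and Fbxw24, with -2.62 ± 0.59, in Ex3abERKO.

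Markers of other ovarian cells also differed between the groups, and their part in the results above was not tested. Of 15 granulosa cell genes, 1 fell and 2 rose in Ex3aERKO, and 7 fell and 1 rose in Ex3abERKO. Summed on the linear scale, Ex3aERKO arrays had 169 to 411, Ex3bERKO arrays 140 to 226 and Ex3abERKO arrays 42.3 to 114, against 146 to 261 in control. Of 10 genes of Sertoli cells, the supporting cells of the testis, 5 rose in Ex3aERKO, 2 in Ex3bERKO and 8 in Ex3abERKO, where 1 fell, and their sum was 47.1 to 63.9 (Ex3aERKO), 14.3 to 41.1 (Ex3bERKO) and 20.5 to 57.2 (Ex3abERKO), against 5.38 to 8.39 in control. Of 8 luteal genes, 4 fell in Ex3aERKO, 2 in Ex3bERKO and 7 in Ex3abERKO, with sums of 165 to 228, 175 to 339 and 62.7 to 161, against 325 to 627 in control.

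Some listed genes are also used by other cells, so some markers of such cells are given beside them. Dnmt3l is known from male germ cells as well. Of 10 genes of haploid male germ cells 0 passed in any comparison with control. Their summed level was 0.546 to 0.940 in Ex3abERKO against 0.585 to 0.862 in control. This list covers haploid cells alone, so it did not test for earlier male germ cells. Uchl1 and Elavl2 are neuronal too, and of 7 neuron genes tested 1 fell in Ex3aERKO, and 1 fell and 1 rose in Ex3abERKO, with a sum of 0.908 to 1.25 in Ex3aERKO and 1.35 to 2.34 in Ex3abERKO against 0.943 to 2.04 in control. Tcl1 is a lymphoid gene too, and of 8 lymphocyte genes 6 rose in Ex3abERKO, with a sum of 5.42 to 26.9 against 1.87 to 3.06 in control, while Tcl1 fell.

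The DNA before the start of these genes was read from RefSeq's promoter table (GRCm38.p6), which held 32 of the 39 genes (not Bcl2l10, Dppa3, Khdc1a, Mos, Nlrp14, Npm2 and Oas1d) and 27025 genes in all. Within the 250 bases before the start, 8 motifs were counted on both strands: the general E-box CANNTG, which helix-loop-helix factors such as Figla can bind, the narrower E-box CACCTG and the narrower E-box CAGCTG (both of them forms of the first), the homeobox core motif TAATTG, the homeobox core motif TAATTA, the homeobox motif TGATTG, the box TATAAA and the box CCAAT. The motif CACCTG was found before 16 of the 32 genes (50%), against 19.4% of all genes. Some genes have several starts, and over single windows it was in 37.2% of the 43 windows of the listed genes, against 17.2% of all 32851 windows. The broader CANNTG was before 27 of the 32 genes, against 69.3% of all genes. CAGCTG was before 6 of the 32 (14.7% of all genes), CCAAT before 15 (37.5%), TGATTG before 5 (14.5%), TATAAA before 3 (14.3%), TAATTG before 2 (8.3%) and TAATTA before 2 (5.65%). CACCTG was singled out after the counts were seen, a match is a description of these letters, and nothing was measured here about binding. The genes with it include those that fell in both knockouts of ERα, such as Zar1, Padi6 and H1foo, and those that did not pass in either, such as Figla, Cpeb1, Ybx2 and Sycp3. The upstream sequences of 4 genes with CACCTG and of Uchl1, which has none and which fell in Ex3aERKO and passed in neither other comparison with control, are shown on the gene's strand with each CACCTG, or its reverse complement CAGGTG, in capitals, from chr5:72581085-72581334 (minus strand) for Zar1, chr4:140742644-140742893 (minus) for Padi6, chr6:115944681-115944930 (plus) for H1foo, chr19:11691052-11691301 (minus) for Oosp1 and chr5:66675871-66676120 (plus) for Uchl1.
Zar1: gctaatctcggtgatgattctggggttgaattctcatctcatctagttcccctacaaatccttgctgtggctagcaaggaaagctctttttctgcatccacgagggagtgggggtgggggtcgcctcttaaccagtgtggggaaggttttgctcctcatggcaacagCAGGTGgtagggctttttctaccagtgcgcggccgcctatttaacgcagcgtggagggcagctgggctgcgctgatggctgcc
Padi6: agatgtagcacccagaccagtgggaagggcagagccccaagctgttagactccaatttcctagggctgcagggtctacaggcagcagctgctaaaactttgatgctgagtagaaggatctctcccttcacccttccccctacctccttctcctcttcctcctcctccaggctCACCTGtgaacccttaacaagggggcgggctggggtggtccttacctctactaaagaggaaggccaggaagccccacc
H1foo: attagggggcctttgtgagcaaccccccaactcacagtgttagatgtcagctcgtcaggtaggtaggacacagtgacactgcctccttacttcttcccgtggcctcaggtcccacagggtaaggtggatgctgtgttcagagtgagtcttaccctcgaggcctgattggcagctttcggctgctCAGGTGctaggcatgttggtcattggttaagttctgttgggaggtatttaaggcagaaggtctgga
Oosp1: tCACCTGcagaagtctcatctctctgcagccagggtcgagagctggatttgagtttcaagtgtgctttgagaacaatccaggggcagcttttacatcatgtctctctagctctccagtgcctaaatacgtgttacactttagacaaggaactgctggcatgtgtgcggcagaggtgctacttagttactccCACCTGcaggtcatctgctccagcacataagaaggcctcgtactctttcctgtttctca
Uchl1: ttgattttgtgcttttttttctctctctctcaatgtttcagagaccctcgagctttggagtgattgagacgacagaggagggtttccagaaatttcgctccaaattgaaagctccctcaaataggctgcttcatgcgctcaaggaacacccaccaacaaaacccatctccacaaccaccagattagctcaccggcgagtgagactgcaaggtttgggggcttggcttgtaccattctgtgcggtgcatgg
Counted from the start of transcription, the copy lies at -83 in Zar1, -78 in Padi6 and -66 in H1foo, and Oosp1 has copies at -249 and -59.

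The array's own probes are given by the array files in the older build mm7, for which no genome was used here, and their place in exons or introns is not stated. The probe of Zar1 lay at chr5:71952702-71952840, that of H1foo at chr6:115975812-115975871, that of Dnmt3l at chr10:77717971-77718030 and that of Uchl1 at chr5:66042692-66042752. Other probes of Lhx8, Gtsf1 and Oosp1 had the same signs as the brightest ones against control, with -1.94, -2.10 and -2.76 in Ex3aERKO and -0.95, -0.80 and -1.59 in Ex3abERKO. Both Oosp1 probes overlap in place (chr19:11347806-11347865 and chr19:11347796-11347855), so they are not separate readings. The other Uchl1 probe gave -1.46 in Ex3aERKO, -0.35 in Ex3abERKO and 1.11 for Ex3abERKO minus Ex3aERKO, and the other Khdc1a probe gave -1.21, -1.22 and -0.01. For Khdc1a the 2 probes thus gave unlike differences between Ex3abERKO and Ex3aERKO.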

How the data were processed

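Total RNA of whole ovaries was labelled with the dye Cy3 and read on 16 single-colour Agilent arrays of 60-base probes. Per the file headers, the spot intensity values were background-subtracted within each array by Agilent Feature Extraction (version 9.5, per the submitters' processing notes), with no scaling between arrays. The authors' deposited series table held the same intensity values for all 41174 probes (relative tolerance 0.0001), on a linear scale, with column medians of 149 to 253.

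Here, log2 was taken and each array's 75th percentile over 43379 non-control spots was subtracted. Outlier spots (54 to 106 per array) were left out, 0 to 7 saturated spots per array were kept, and spots of a probe were averaged. Probes well above background on at least 4 arrays were kept, 1 per gene (the brightest). Probes were named through RefSeq accessions (GRCm38.p6; 22944 probes), a current symbol (6664) or an older one (3108), and 8458 had no match. limma 3.58.1 (R 4.3.3) fitted 1 mean per group over all 16 arrays (12 residual degrees of freedom), with two-sided p-values adjusted by the Benjamini-Hochberg method over 24366 features in each of 7 comparisons. The number of arrays limits the precision.

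The 39 genes, their roles and the marker lists, taken from general knowledge, were chosen with earlier results of these data known. Values on every array are given for the 2 genes of each role with the highest control level, for tested genes that did not pass in Ex3aERKO or Ex3abERKO against control, for genes that passed in Ex3bERKO against control or in Ex3abERKO against Ex3aERKO, and for genes whose probes point opposite ways. From marker lists at most 3 genes per comparison were to be named. The alternatives were normexp background correction (offset 50), other scalings and filters, the mean of a gene's probes, slide or replicate number as a block, only the compared groups, array weights, a trended and robust fit, and each array left out. Slides were told apart by the scan date in the file headers. Leaving out the 3 arrays with the top liver, oviduct and erythroid sums was added after the data were seen.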

Additional observations from a re-analysis of the deposited data

Results flagged for a closer look

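Of 144 groups of 4 arrays (36 genes in 4 groups), 18 held an array whose gap to the nearest of the others exceeded Dixon's critical share of the group's range, where chance flags about 1 in 20 groups. Of the 18, 14 were Ex3bERKO 2, below the other Ex3bERKO arrays. Its levels were -2.02 for Obox5, 1.78 for Padi6, 0.85 for Nlrp14, 0.83 for Npm2, 2.76 for H1foo, -2.37 for Dazl and -2.25 for Btg4. For Mos it was at -2.84, for Wee2 at -3.94, for Oosp1 at 0.47, for Oog1 at 0.96, for Oas1d at 1.83, for Bcl2l10 at 0.32 and for Khdc1a at -1.46. These genes are read on 1 array and are not independent of one another. Ex3abERKO 1 lay below its group for Figla (-4.52), Dppa3 (-0.33) and Oas1d (-0.24). Control 1 lay above its group for Fmn2 (0.85).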

How the results depend on the processing

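Over 29 alternatives, of which 28 apply to the interaction, no called gene changed sign, and over all genes, comparisons and alternatives the call was lost 218 times and gained 64 times. Without the 3 arrays with the top liver, oviduct and erythroid sums, a setting chosen after seeing the data and with fewer samples, 5 genes were lower in Ex3aERKO and 9 in Ex3abERKO against control, and 14 in Ex3aERKO against Ex3bERKO. With only the compared groups in the model, 3 genes were lower in Ex3aERKO against Ex3bERKO; the cause was not tested. With normexp background correction 0 genes were higher in Ex3abERKO against Ex3bERKO. With array weights 2 genes were higher in Ex3abERKO against control. In the interaction, 1 gene passed above 0 with median scaling, quantile normalization, probes above background on all 16 arrays, slide as a random block, a trended and robust fit, or array weights. Leaving out 1 array gave 16 to 25 lower genes in Ex3aERKO against control, 11 to 21 in Ex3abERKO against control (11 without control 2 and 12 without control 3), 21 to 27 in Ex3abERKO against Ex3bERKO and 22 to 29 in Ex3aERKO against Ex3bERKO. It gave 2 to 5 higher genes in Ex3abERKO against Ex3aERKO (5 without Ex3aERKO 3), 0 to 1 in Ex3abERKO against Ex3bERKO (0 without Ex3bERKO 1, Ex3abERKO 1 or Ex3abERKO 4) and 0 to 1 in the interaction (1 without Ex3aERKO 2 or Ex3abERKO 3). The replicate numbers do not pair the arrays: same-numbered arrays had r of -0.29 to 0.44 (median -0.07), and 4 of 16 correlated best with their own number. With a replicate block, 21 genes were lower in Ex3aERKO and 18 in Ex3abERKO against control. Over all features, 1961 passed in Ex3aERKO and 5443 in Ex3abERKO against control, 947 and 3122 with normexp, 5382 and 8537 with array weights, and 559 and 3220 without the 3 arrays. In Ex3bERKO 255 passed, 155 with normexp, 86 with only the compared groups, 824 with array weights and 63 without the 3 arrays. Normexp moved the median of all features to -0.34 in Ex3aERKO, -0.27 in Ex3bERKO and -0.36 in Ex3abERKO, while that of the 36 genes was -1.83, 0.51 and -1.43. For Ex3bERKO it also gave 112 lower and 43 higher features, against 158 and 97 before. Genes that share probe sequence with relatives (Obox5, Oog1, Oas1d), and genes read at low levels such as Sycp3 and Pou5f1, are the least certain. The probes of Dppa3, Gtsf1 and Khdc1a also carry an accession that matched no gene, so what else they may read is not known.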
